A study of Mus musculus with 43 samples.

Results

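The collagen genes encode the chains of the collagens, the main structural proteins of the extracellular matrix. They were taken as every entry of the expression table that names a single gene whose symbol reads Col, a number, the letter a and a number. The rule found 42 of 42349 entries. By the kind of assembly their chains form, 11 were fibrillar, 6 basement membrane, 2 multiplexin, 6 beaded filament, 8 fibril-associated, 4 transmembrane and 3 short-chain network collagens, and 2 were placed in none of these classes. A further 2 entries hold a collagen joined to a neighbouring gene and were kept apart.

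Each collagen molecule is a triple helix of 3 chains in which glycine recurs in a fixed repeat, written Gly-X-Y. Fibrillar collagens such as type I, III and V pack side by side into the fibres that carry tension, whereas type IV forms a sheet-like network in the basement membranes that surround vessels, adipocytes and muscle fibres. Type VI forms beaded filaments at the outer face of those membranes, and fibril-associated collagens coat the fibres. In adipose tissue, muscle and liver the matrix is laid down largely by fibroblast-like cells and by the cells of the vessel wall.

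Polyadenylated RNA had been sequenced from brain, liver, skeletal muscle and the inguinal depot of white adipose tissue (WAT) of female mice aged 15 months, with or without the insulin receptor substrate 1 gene (Irs1), an adaptor that passes the signal of the insulin and insulin-like growth factor receptors into the cell. Wild-type mice (WT, Irs1+/+) and mice lacking Irs1 throughout the body (KO, Irs1-/-) were fed ad libitum (AL) or kept on dietary restriction (DR), which reached a 30% reduction of food intake, was begun at 10 weeks of age and had lasted 12 months. The groups are called WTAL, WTDR, KOAL and KODR. The labels name 2 WTAL libraries per tissue, 3 WTDR libraries (2 in WAT), and 3 libraries each of KOAL and KODR. The values are the authors' estimates for each group in FPKM, that is, fragments scaled by transcript length and by sequencing depth, so that levels of different genes can be set beside each other. Each comes with a 95% interval, and 1 pooled value per group means that no spread between single mice can be shown here. The read depth of the libraries is not given by these values. For the collagen genes at 1 FPKM or more, the median standard deviation implied by the interval was 36.5 to 62.9% of the FPKM, depending on the group.

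The markers of the labelled tissue were present in every group, since the summed FPKM of 7 hepatocyte genes in liver was at least 53884, that of 8 muscle fibre genes in muscle at least 109524, that of 6 adipocyte genes in WAT at least 13184 and that of 5 neuronal genes in brain at least 1170. The Irs1 entry itself did not follow the genotype labels. In WTAL, WTDR, KOAL and KODR it stood at 4.70, 3.29, 5.95 and 4.75 FPKM in liver, at 5.72, 5.48, 6.31 and 5.82 in muscle, at 2.47, 1.62, 3.49 and 4.14 in brain and at 2.47, 6.56, 5.37 and 2.58 in WAT. In brain it was called higher in KODR than in WTDR (log2 difference 1.35, SE 0.40, by the test described below). Which exons the allele removes was not examined, so this entry does not check the labels, and every direction below is that of the groups as labelled. Because these are whole tissues, fewer cells of a type and less RNA per cell cannot be told apart.

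Many of the genes, but not all, have coding exons of a recurring length, since 17 of the 42 had 5 or more segments of 54 bases. Collagen chains carry the Gly-X-Y repeat, so exon lengths tied to it are not independent of the name rule. Of 1850 coding exon segments of the collagen genes in the GENCODE M21 annotation of GRCm38, 24.8% were exactly 54 bases long, a length that codes for 6 turns of the Gly-X-Y repeat, against 0.675% of 199250 segments over all 21924 protein-coding genes. Segments whose length is a multiple of 9 bases, the length of 1 repeat, made up 62.4% against 14.5%. The 54-base segments were 47% of those of the fibrillar genes and 26.5% of those of the fibril-associated genes, but 4.05% of those of the basement membrane genes and 0% of those of the short-chain network genes. The median collagen gene had 47 coding segments, the median fibrillar gene 60 and the median short-chain gene 2, compared with 6 over all genes.

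RefSeq start-site windows, which run from 250 bases before to 50 bases into the transcript on GRCm38.p6, were found for 33 of the 42 genes (36 windows of 300 bases, of 32851 in all). Their median GC content was 60%, against 52.7% over all windows. Of the collagen windows, 61.1% held the GC box letters GGGCGG on either strand, against 35.7% of all windows, 33.3% held the CCAAT box letters CCAAT on either strand, against 37.4%, and 13.9% held TATAAA on the gene's own strand, against 8.32%. No expression result was tested against these windows, and those of 6 genes are printed as examples. These are Col4a1 and Col4a2, the divergently transcribed pair of the type IV network, Col1a2 and Col3a1 as fibrillar genes, Col18a1 with both of its windows, and Col25a1. Each is written on the gene's strand, 5′ to 3′, and capitals mark every match to CCAAT (read as ATTGG on the other strand), GGGCGG (read as CCGCCC) and, on the gene's strand, TATAAA.
Col4a1, chr8:11312777-11313076, minus strand: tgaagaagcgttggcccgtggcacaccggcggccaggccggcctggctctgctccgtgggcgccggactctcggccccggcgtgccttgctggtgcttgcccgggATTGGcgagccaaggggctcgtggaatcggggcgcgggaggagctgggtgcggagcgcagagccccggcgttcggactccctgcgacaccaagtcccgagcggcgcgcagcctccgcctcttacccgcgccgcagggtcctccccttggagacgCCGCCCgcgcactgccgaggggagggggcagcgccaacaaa
Col4a2, chr8:11312555-11312854, plus strand: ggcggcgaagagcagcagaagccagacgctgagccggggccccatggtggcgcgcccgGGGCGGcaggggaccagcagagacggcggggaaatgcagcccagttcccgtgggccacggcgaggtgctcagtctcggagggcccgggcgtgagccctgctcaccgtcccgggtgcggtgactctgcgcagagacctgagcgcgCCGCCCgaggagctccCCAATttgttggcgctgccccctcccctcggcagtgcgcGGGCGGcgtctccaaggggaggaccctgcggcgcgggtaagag
Col1a2, chr6:4505368-4505667, plus strand: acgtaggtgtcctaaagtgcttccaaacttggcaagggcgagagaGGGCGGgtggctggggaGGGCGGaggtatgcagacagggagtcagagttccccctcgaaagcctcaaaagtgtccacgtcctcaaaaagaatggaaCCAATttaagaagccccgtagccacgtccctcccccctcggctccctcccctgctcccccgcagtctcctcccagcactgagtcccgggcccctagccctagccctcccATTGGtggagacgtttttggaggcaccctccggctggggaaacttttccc
Col3a1, chr1:45311288-45311587, plus strand: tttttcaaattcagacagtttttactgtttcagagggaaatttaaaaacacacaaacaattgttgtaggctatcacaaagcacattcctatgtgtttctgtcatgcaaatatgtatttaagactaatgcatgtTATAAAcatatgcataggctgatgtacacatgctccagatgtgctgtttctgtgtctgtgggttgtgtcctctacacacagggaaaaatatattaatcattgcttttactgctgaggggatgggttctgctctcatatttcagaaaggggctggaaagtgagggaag
Col18a1, chr10:77113656-77113955, minus strand: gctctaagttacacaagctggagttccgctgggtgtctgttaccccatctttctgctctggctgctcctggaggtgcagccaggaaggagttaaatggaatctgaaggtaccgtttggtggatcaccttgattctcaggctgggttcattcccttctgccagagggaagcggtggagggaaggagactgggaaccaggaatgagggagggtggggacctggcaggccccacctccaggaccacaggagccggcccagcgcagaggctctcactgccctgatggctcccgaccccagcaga
Col18a1, chr10:77166481-77166780, minus strand: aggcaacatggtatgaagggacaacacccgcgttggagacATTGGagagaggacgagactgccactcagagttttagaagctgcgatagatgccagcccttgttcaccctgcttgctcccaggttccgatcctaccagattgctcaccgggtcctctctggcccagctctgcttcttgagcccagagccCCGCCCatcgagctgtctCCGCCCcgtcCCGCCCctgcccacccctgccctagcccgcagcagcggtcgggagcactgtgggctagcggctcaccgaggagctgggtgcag
Col25a1, chr3:130180595-130180894, plus strand: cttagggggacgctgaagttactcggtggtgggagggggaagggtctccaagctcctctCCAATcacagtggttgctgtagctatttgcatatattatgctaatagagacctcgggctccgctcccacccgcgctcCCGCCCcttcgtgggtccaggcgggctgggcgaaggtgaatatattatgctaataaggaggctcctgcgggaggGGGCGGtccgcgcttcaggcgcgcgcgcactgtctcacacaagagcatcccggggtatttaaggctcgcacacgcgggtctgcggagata

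The Col4a1 and Col4a2 windows share 78 bases, read on opposite strands. In GENCODE, from which all gene positions here are taken (GRCm38), the Col4a1 gene (chr8:11198423-11312826, minus strand) and the Col4a2 gene (chr8:11312805-11449287, plus strand) overlap by their first bases, and the expression table gives both entries the same locus. Whether the counting used strand is not given in the sources used here. The Col3a1 window was the only printed one with TATAAA, and it held neither of the other motifs. The 2 Col18a1 windows differed, since the upstream one held ATTGG once and CCGCCC 3 times, while none of the letters searched were in the downstream one. A match or its absence describes only the letters in these windows.

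WAT held the most collagen RNA. Over the 42 genes the summed FPKM in WTAL, WTDR, KOAL and KODR was 1176, 723, 797 and 671 in WAT, 279, 230, 321 and 272 in liver, 166, 121, 140 and 110 in muscle, and 66.6, 61.1, 73.6 and 86.9 in brain. Averaged over the 4 groups, the WAT sum was 6.27 times that of muscle. Of the 42 genes, 33 reached 1 FPKM in at least 1 group and 9 stayed under 1 FPKM in all 16 groups, whereas 47.8% of all entries reached it. Among those 33 the highest tissue was WAT for 18, brain for 10, liver for 3 and muscle for 2. Over all 20228 entries that reached 1 FPKM the shares were 21.1% WAT, 34.3% brain, 25.3% liver and 19.3% muscle.

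**Figure D1:**
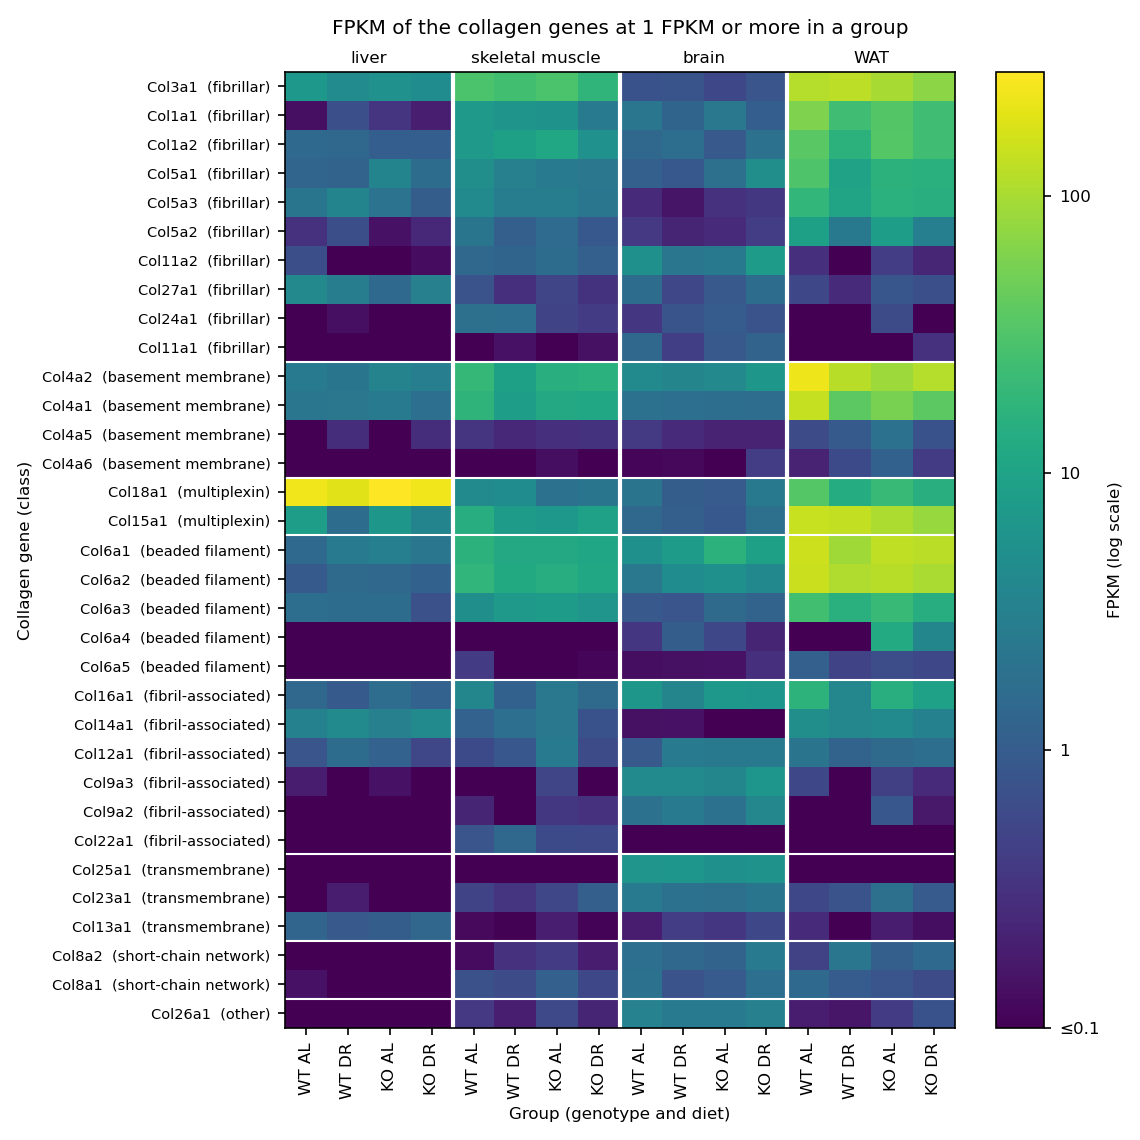
FPKM (log colour scale, values at or under 0.1 in the darkest shade) of the 33 collagen genes that reached 1 FPKM, ordered by class, in the 16 groups. The WAT columns are brightest for Col1a1, Col1a2, Col3a1, Col4a1, Col4a2, Col6a1 and Col6a2, Col18a1 is brightest in liver, and the Col25a1 row is bright in brain alone.

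Among the fibrillar genes, Col3a1 (chr1:45311538-45349706), which encodes type III collagen of pliable tissues, was the most abundant. In WTAL, WTDR, KOAL and KODR it stood at 114, 126, 100.2 and 70.3 FPKM in WAT, 29.3, 25.4, 29.2 and 18.1 in muscle, 6.88, 4.62, 5.60 and 4.80 in liver and 0.74, 0.77, 0.56 and 0.82 in brain. The order of tissues was therefore the same in all groups. Col1a1, the main chain of type I collagen, stood at 61.1, 24.9, 33.1 and 24.3 FPKM in WAT, at 2.69 to 7.18 in muscle, at 1.07 to 2.40 in brain and at 0.14 to 0.69 in liver. Its partner chain Col1a2 was at 36.6, 16.5, 34.1 and 24.5 FPKM in WAT. Col11a2, which encodes a chain of type XI collagen and is best known from cartilage, was the highest fibrillar gene in brain, where the 4 groups read 5.34, 2.23, 2.47 and 7.80 FPKM.

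The basement membrane genes Col4a1 and Col4a2, whose chains form the type IV network found under nearly all endothelia and epithelia, dominated their class. Col4a1 stood at 137, 37.4, 56.3 and 37.7 FPKM in WAT and at 17.5, 8.50, 11.9 and 11.6 in muscle, in the order WTAL, WTDR, KOAL and KODR. Col4a2 stood at 232, 118, 86.1 and 114 FPKM in WAT and at 19.8, 9.0, 14.8 and 16.1 in muscle. In each of these 4 series of values WTAL was the highest group.

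The multiplexins, which are basement membrane proteoglycans, were split between tissues. Col18a1 (chr10:77052178-77166548), whose product carries the endostatin fragment, reached 237 FPKM (95% interval 57.6 to 417) in WTAL liver, 194 (56.4 to 332) in WTDR, 279 (132 to 427) in KOAL and 239 (94.7 to 383) in KODR. The 4 liver intervals overlapped one another, and in all 4 groups the liver interval lay above those of the other 3 tissues, as it did for 2.77% of all entries. Averaged over groups, Col18a1 in liver was 11.2 times its next tissue, WAT, where it stood at 34.2, 13.8, 21.8 and 14.9 FPKM. It made up 84.3 to 87.8% of the summed collagen FPKM of liver. Col15a1, the other multiplexin, was highest in WAT with 142, 133, 105 and 83.1 FPKM, 12.2 times its level in muscle.

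Of the beaded filament genes, Col6a1 (chr10:76708792-76726168) stood at 153, 89.8, 132 and 124 FPKM in WAT and Col6a2 at 149, 107, 120 and 103. Both encode short chains of type VI collagen. The long chain Col6a3, from whose end the endotrophin fragment is cut, was at 25.4, 15.5, 21.6 and 13.9 FPKM. In WTAL the WAT interval lay above those of the other 3 tissues for 5 of 29 collagen genes (Col1a2, Col5a2, Col5a3, Col6a1 and Col6a2), against 3.1% of all entries. The number was 3 of 30 in KOAL (Col5a3, Col6a1 and Col6a2; 2.22% of all entries), 2 of 28 in KODR (Col6a1 and Col6a2; 0.978%) and 0 of 28 in WTDR (0.399%).

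In brain, Col6a1 led in 3 of the 4 groups, with 5.40, 7.96, 16.5 and 9.06 FPKM in WTAL, WTDR, KOAL and KODR. Col25a1, a transmembrane collagen of neurons, stood at 6.32, 6.46, 5.31 and 5.80 FPKM there, 146 times its next tissue on average. It was under 0.1 FPKM in every group of the other tissues, and its brain interval was above theirs in all 4 groups, as was that of 4.89% of all entries. Col16a1, a fibril-associated collagen, was at 6.72, 3.72, 6.82 and 6.40 FPKM in brain and at 16.9, 3.90, 14.7 and 9.30 in WAT, so that WTDR was its lowest group in both. Col9a3, a type IX chain known from cartilage, read 4.45, 4.46, 3.87 and 6.38 FPKM in brain, and Col26a1 read 3.38, 2.62, 2.71 and 3.14.

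**Figure D2:**
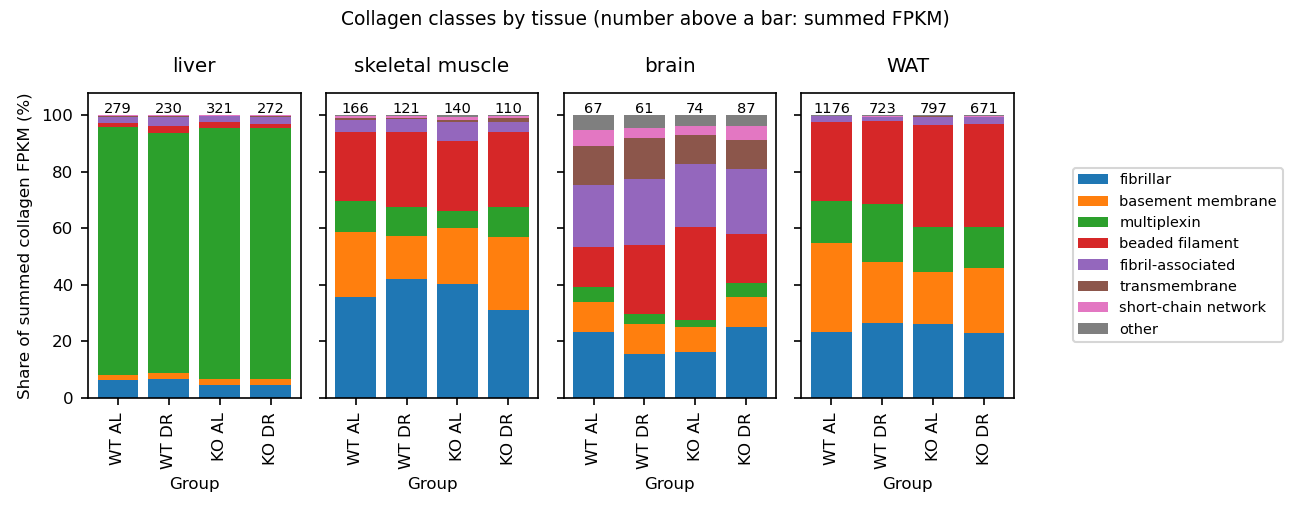
Share of the summed collagen FPKM (%) that each class holds in each group, by tissue, with the summed FPKM above each bar. Multiplexins hold 85 to 89.2% of the liver bars, and the WAT bars are shared mainly by beaded filament, fibrillar, basement membrane and multiplexin genes.

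The mixture of classes set the tissues apart. In WAT, beaded filament genes held 27.9 to 36.7% of the sum, fibrillar genes 23 to 26.3%, basement membrane genes 18.3 to 31.5% and multiplexins 14.6 to 20.3%. In muscle, fibrillar genes held the largest share of any class (31 to 42.2%), ahead of beaded filament (24.6 to 26.6%) and basement membrane genes (15 to 25.9%). In brain, fibril-associated genes held 22.1 to 23.3%, beaded filament genes 14.1 to 32.9%, fibrillar genes 15.5 to 25.1% and transmembrane genes 10 to 14.6%. These shares carry no error of their own, since the covariance between genes is not given by the group values.

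The ratios between chains that assemble with each other were uncertain within a group and their medians varied between tissues. Type I collagen holds 2 chains of Col1a1 to 1 of Col1a2, and the median ratio of their FPKM over the 4 groups was 1.25 in WAT, 1.18 in brain, 0.596 in muscle and 0.248 in liver. Type IV holds 2 chains of Col4a1 to 1 of Col4a2 and the ratio of Col4a2 to Col4a1 was 2.35 in WAT (1.53 to 3.16 over groups), 2.31 in brain, 1.26 in liver and 1.19 in muscle. The shared locus of these 2 entries bears on this ratio, and its part was not tested. Type VI holds 1 chain each of its 3 main genes, and the ratio of Col6a1 to Col6a2 was 1.06 in WAT and 0.917 in muscle, but 1.81 in liver and 2.25 in brain. The ratio of Col6a1 to Col6a3 was 6.06 in WAT and 8.51 in brain against 1.73 in both liver and muscle. Col3a1 stood above Col1a1 in WAT (2.96 times), muscle (4.56) and liver (20.7), and below it in brain (0.464). Within a single group the SE of the log2 ratio of Col1a1 to Col1a2 was 0.69 to 4.29, that of Col4a2 to Col4a1 0.56 to 1.80 and that of Col6a1 to Col6a2 0.43 to 1.01, and no difference between tissues in these ratios was tested.

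**Figure D3:**
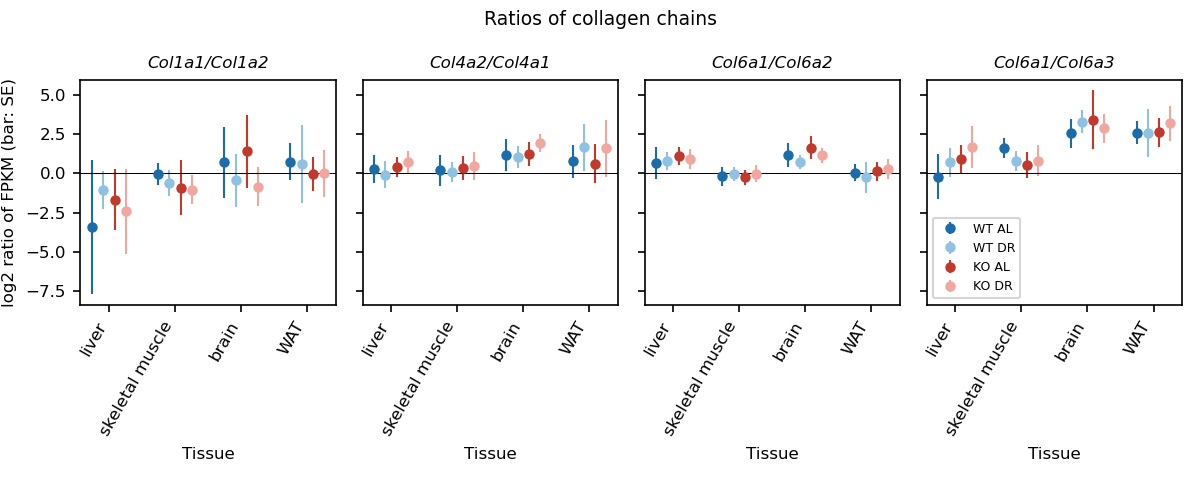
Log2 ratio of the FPKM of paired collagen chains in each group, with bars of 1 SE from the authors' intervals. The Col6a1/Col6a2 points of WAT and muscle lie near 0, the Col6a1/Col6a3 points of WAT and brain lie above it, and the longest bar is that of Col1a1/Col1a2 in WTAL liver.

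To ask how diet and genotype relate to collagen expression, groups were compared within each tissue with a two-sided Wald test on the log2 ratio of group FPKM, its standard error (SE) taken from the authors' intervals and its p-values adjusted by Benjamini and Hochberg over all entries tested in that tissue and comparison. An entry was tested where it reached 1 FPKM in at least 1 of the groups. A gene that reached it in only 1 of the 2 groups compared was tested through that group, so its direction was fixed by the minimum, and the counts, medians and class counts below include such genes. At a false discovery rate (FDR) of 10%, 0 collagen genes passed in any of the 16 comparisons or the 4 interactions. Over the 16 comparisons this was 0 of 312 pairs of gene and comparison, beside 0.692% of 232492 pairs over all entries. This result is that of the present test and not of the authors' own Cuffdiff test. At the same FDR, the counts that the authors report for WTDR and KOAL against WTAL are higher in most tissues. They also list collagen binding among the terms enriched in genes lower in WTDR WAT. At an unadjusted p under 0.05, 8 of the 312 pairs passed (2.56% against 3.35%). With an SE divided by the square root of the number of libraries, which takes the authors' interval to describe single libraries and not the group mean, 17 passed at an FDR of 10% (5.45% against 4.96%). With 2 or 3 libraries per group the normal reference of this test is approximate, so p-values are not printed and the differences below are given as values with their errors, and genes singled out for their size or unadjusted p were chosen after their values were seen.

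In WAT, most collagen genes stood lower in WTDR than in WTAL, without any passing the test (Wald, FDR 10%, against 0.57% of all entries). Of 19 genes tested, 17 had the lower value in WTDR, with a median log2 difference of −0.92, whereas 59.2% of all entries were lower, with a median of −0.17. All of the tested basement membrane (2), multiplexin (2), beaded filament (4) and fibril-associated (3) genes were on the lower side, as were 5 of 6 fibrillar genes. The class medians were −1.42, −0.70, −0.74, −0.73 and −1.22 in that order. The exceptions were Col3a1 (0.15) and Col8a2 (2.26, SE 1.24), which encodes a short-chain collagen of endothelial basement membranes and reached 1 FPKM in WTDR only. Of the 17 genes that reached 1 FPKM in both groups, 16 were lower in WTDR.

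Col5a2 (chr1:45374321-45503282), a chain of the type V collagen that sits inside type I fibres, came nearest to the threshold. It stood at 9.18 FPKM (95% interval 4.69 to 13.7) in WTAL WAT and at 2.47 (0.614 to 4.33) in WTDR, intervals that did not overlap (1.17% of all entries). The log2 difference was −1.89 (SE 0.65, 95% interval −3.16 to −0.62) and did not pass. It was the 1 collagen gene at an unadjusted p under 0.05 there (3.56% of all entries) and the 1 that passed with the smaller SE (2.75% of all entries). In KOAL and KODR it stood at 8.21 and 3.06 FPKM, so that both DR groups read below both AL groups.

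The larger differences had wide errors. In WTDR against WTAL the log2 difference was −2.11 (SE 1.58) for Col16a1, −1.88 (SE 1.51) for Col4a1 and −1.70 (SE 1.29) for Col5a1, the partner of Col5a2. It was −1.31 (SE 0.96) for Col18a1, −1.30 (SE 2.67) for Col1a1, −1.15 (SE 0.66) for Col1a2 and −0.97 (SE 1.04) for Col4a2. Each of these SEs leaves room for no difference.

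**Figure D4:**
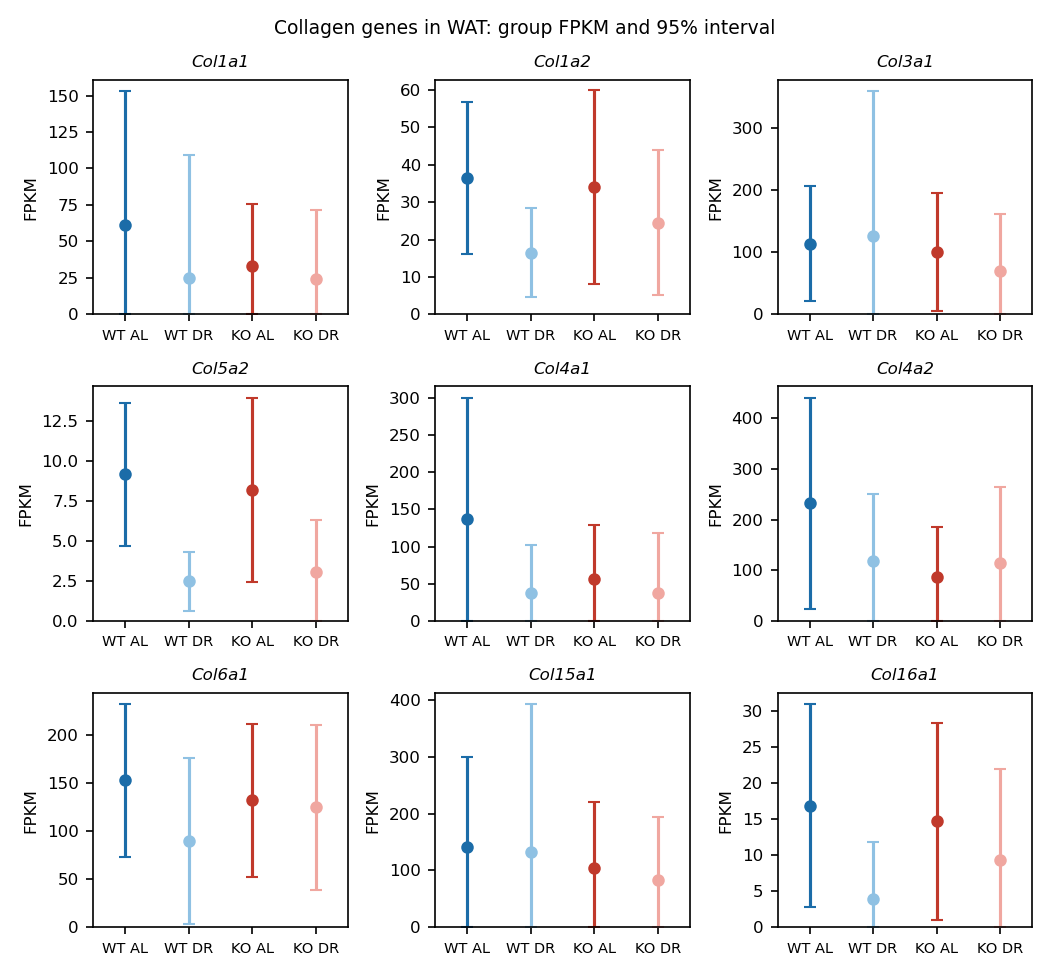
FPKM in WAT of 9 collagen genes, with the authors' 95% interval, in the 4 groups. The WTAL point is the highest for 8 of the 9 genes, Col3a1 being the exception, and the WTAL and WTDR intervals are apart only for Col5a2.

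The summed markers of other cell types also differed between these WAT groups. From WTAL to WTDR the summed FPKM of fibroblast markers (8 of 9 genes measured) read 4418 and 1740, that of pericyte and smooth muscle markers 741 and 210, that of endothelial markers 590 and 366 and that of macrophage markers 582 and 209, whereas adipocyte markers summed to 19464 and 21588. The fibroblast list was not uniform, since Lum was called higher in WTDR (47.7 against 20.9 FPKM). Dcn of that list read 405 FPKM in WTAL and 441 in WTDR. In the pericyte and smooth muscle list, Cspg4 read 4.93 FPKM in WTAL and 15.9 in WTDR and was not called. Acta2, the smooth muscle actin, was called lower in WTDR (97.4 against 574.7 FPKM, log2 difference −2.56). All 6 tested endothelial genes and all 5 macrophage genes were lower in WTDR, with medians of −0.85 and −1.44. Skeletal muscle fibre markers went the other way for most genes, since 7 of 8 were higher in WTDR with a median of 3.33 and Myh4, Ckm and Tnni2 were called (Ckm 114 against 2.2 FPKM, log2 difference 5.70), although their sum read 525 and 374. The part of these cells in the collagen values was not tested.

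In muscle, 13 of 18 tested collagen genes had the lower value in WTDR than in WTAL, with a median of −0.34 against −0.06 over all entries, and 0 passed (1.4% of all entries). Both type IV genes were on the lower side with a class median of −1.09, as were 7 of 8 fibrillar genes with a median of −0.23. In the same groups adipocyte markers summed to 1320 FPKM in WTAL and 369 in WTDR, Schwann cell markers to 93.0 and 30.1, and hepatocyte markers to 21.2 and 2383, and their part in these values was not tested. In brain 14 of 22 genes were lower, with a median of −0.34 against −0.08, and in liver 10 of 16, with a median of −0.09 against 0.03. In both tissues 0 genes passed (0.224% and 0.236% of all entries).

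In KOAL against WTAL, the comparison of the knockout with the wild type under ad libitum feeding, 18 of 23 tested collagen genes in WAT had the lower value in KOAL. The median was −0.23 against −0.06 over all entries, and 0 passed (1.29% of all entries). All 12 of the most studied chains, from Col1a1 to Col18a1, were lower, from −1.43 for Col4a2 (SE 1.05) to −0.10 for Col1a2. The 5 on the higher side were Col6a4, Col4a6, Col23a1, Col4a5 and Col8a2, with log2 differences of 7.79, 2.44, 1.74, 1.71 and 1.22. All of these 5 were under 1 FPKM in WTAL and were tested through KOAL alone, which fixed their direction, whereas the 16 genes that reached 1 FPKM in both groups were all lower in KOAL. WTAL is the reference of this comparison and of the diet comparison above, so the similar directions are not independent of each other.

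Col6a4 (chr9:105989454-106096783), an additional type VI chain, stood at 0.0572 FPKM in WTAL WAT, 0.0869 in WTDR, 12.7 in KOAL and 3.87 in KODR, both KO groups being above both WT groups. The log2 difference was 7.79 (SE 3.58) in KOAL against WTAL and 5.47 (SE 2.78) in KODR against WTDR, both at an unadjusted p under 0.05 and neither past the FDR. It was tested through the KO groups alone, and its level close to 0 in the WT groups makes the size of these ratios unsteady. Col4a5, a type IV chain of epithelial basement membranes, was the other WAT gene at an unadjusted p under 0.05 in KOAL against WTAL (log2 difference 1.71, SE 0.84), beside 4.48% of all entries. With the smaller SE, Col4a5, Col6a4 and Col23a1 passed, beside 5.94% of all entries.

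Markers of several other cell types were called in the same comparison. Of the list for hepatic stellate cells, Hand2 and Ngfr were called higher in KOAL than in WTAL (log2 differences of 4.72 and 3.09). Lum of the fibroblast list was also called higher, as given below. Of 8 muscle fibre genes 6 were called higher in KOAL than in WTAL (Myh4, Ckm, Tnni2, Mylpf, Tcap and Myh1, of which Ckm read 148 against 2.2 FPKM), and the summed FPKM was 525 in WTAL, 374 in WTDR, 1077 in KOAL and 666 in KODR. Of the smooth muscle genes Cnn1 and Myh11 were called higher (log2 differences of 2.97 and 1.65), while the list summed to 741, 210, 574 and 442 FPKM. Mammary epithelial markers were low in both WT groups. Their summed FPKM was 5.53 in WTAL, 6.93 in WTDR, 71.3 in KOAL and 59.1 in KODR, and in KOAL against WTAL the 3 tested genes Epcam, Krt18 and Krt8, which encode an epithelial adhesion protein and 2 keratins, were all called higher (log2 differences of 5.40, 3.80 and 3.27). The milk and luminal genes of the list were not uniform, since Csn3 was at 0 in WTAL and KOAL and Elf5 at 0 in WTDR. The part of any of these cells in the collagen values was not tested.

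In the other tissues 0 collagen genes passed in KOAL against WTAL. In muscle 13 of 19 were lower, with a median of −0.42 against −0.05 (0.681% of all entries called). In brain 14 of 23 were lower, with a median of −0.20 against 0.13 (0.203%), and in liver 8 of 16, with a median of 0.09 against 0.16 (0.316%). In brain, Col6a1 stood at 5.40 FPKM in WTAL and 16.5 in KOAL (log2 difference 1.61, SE 0.77, 95% interval 0.11 to 3.12). It was the 1 gene of that set at an unadjusted p under 0.05 (1.81% of all entries) and the 1 that passed with the smaller SE (1.41%), and the KODR value of 9.06 and the WTDR value of 7.96 lay between.

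In KODR against WTDR, which compares the genotypes under restriction, the collagen genes of brain had the highest median. Of 23 genes tested, 17 were higher in KODR, with a median of 0.62 against 0.23 over all entries, 35.1% of which were lower. By class, 5 of 6 fibrillar genes were higher with a median of 1.56, as were both short-chain genes (1.09), both multiplexins (0.99) and 3 of 4 fibril-associated genes (0.58), whereas the beaded filament genes were divided (−0.03). By the Wald test 0 passed at an FDR of 10% (1.16% of all entries), and 2 had an unadjusted p under 0.05 (7.5%). Of the 17 genes that reached 1 FPKM in both groups, 12 were higher in KODR, while Col11a1, Col27a1, Col5a1, Col6a3 and Col8a1 reached it in KODR only and Col6a4 in WTDR only.

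The 2 genes at an unadjusted p under 0.05 were Col8a1 and Col5a1, both under 1 FPKM in WTDR and tested through KODR alone. Col8a1, a short-chain collagen of vessel walls, stood at 1.97, 0.765, 0.987 and 1.81 FPKM in brain of WTAL, WTDR, KOAL and KODR, and the log2 difference of KODR against WTDR was 1.25 (SE 0.50). Col5a1 stood at 1.15, 0.88, 1.84 and 5.01 FPKM, a log2 difference of 2.52 (SE 1.10). Col11a2 had a log2 difference of 1.81 (SE 0.96). With the smaller SE, 7 genes passed as higher and Col6a4 as lower, 34.8% of those tested, beside 18.5% of all entries, 14.5% being higher and 4.04% lower.

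Choroid plexus markers also differed between the brain groups. They summed to 181 FPKM in WTAL, 61.8 in WTDR, 62.7 in KOAL and 316 in KODR. Most of the sum in WTDR, KOAL and KODR was Ttr, at 52.4, 48.5 and 289 FPKM, a gene also on the hepatocyte list. Of the choroid plexus genes, 6 of 6 were higher in KODR than in WTDR with a median of 1.65, and Kl was called (log2 difference 1.83). Col11a2 had the same order of groups as the sum. It was picked out after the values were seen, and the order of the other collagen genes was not compared. Markers of the meninges read 688, 387, 673 and 715 FPKM, with 3 genes higher and 3 lower in KODR against WTDR, and pericyte markers read 34.0, 26.9, 33.7 and 32.4. The part of these cells in the collagen values was not tested.

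In WAT, 10 of 19 collagen genes were higher in KODR and 9 lower, with a median of 0.01 against 0.09 over all entries, and 0 passing (0.283%). Col6a4 alone had an unadjusted p under 0.05 (1.5% of all entries). In muscle 14 of 19 were lower in KODR, with a median of −0.31 against 0.04 and 0 passing (2.23%), or 2 with the smaller SE (Col22a1 and Col24a1, both lower and both tested through WTDR alone, beside 10.7% of all entries). In liver 9 of 16 were higher, with a median of 0.03 against 0.09 and 0 passing (0.288%). In liver, Col5a3, another type V chain, stood at 1.02 FPKM in KODR and 3.6 in WTDR (log2 difference −1.82, SE 0.59). It was the 1 liver gene at an unadjusted p under 0.05 (1.78% of all entries) and passed with the smaller SE (2.64%).

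In KODR against KOAL, the diet comparison within the knockout, 18 of 21 tested collagen genes in WAT were lower in KODR, with a median of −0.47 against 0.01 over all entries, and 0 passed (0.707%). Col5a2 again lay on the lower side (log2 difference −1.43, SE 0.92), as did Col6a4 (−1.71, SE 1.21), whereas Col4a2 read 0.40. In muscle 15 of 19 were lower (median −0.36 against 0.03) and in liver 12 of 16 (median −0.39 against −0.03), while in brain 15 of 23 were higher (median 0.42 against 0.03). Of those 15 brain genes, 6 reached 1 FPKM in KODR only. In these 3 tissues 0 passed, beside 0.5%, 0.611% and 0.365% of all entries, and with the smaller SE 1 passed, Col14a1 in muscle (−1.68, SE 0.92, tested through KOAL alone, beside 2.69%). This comparison shares the KODR groups with the one before.

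**Figure D5:**
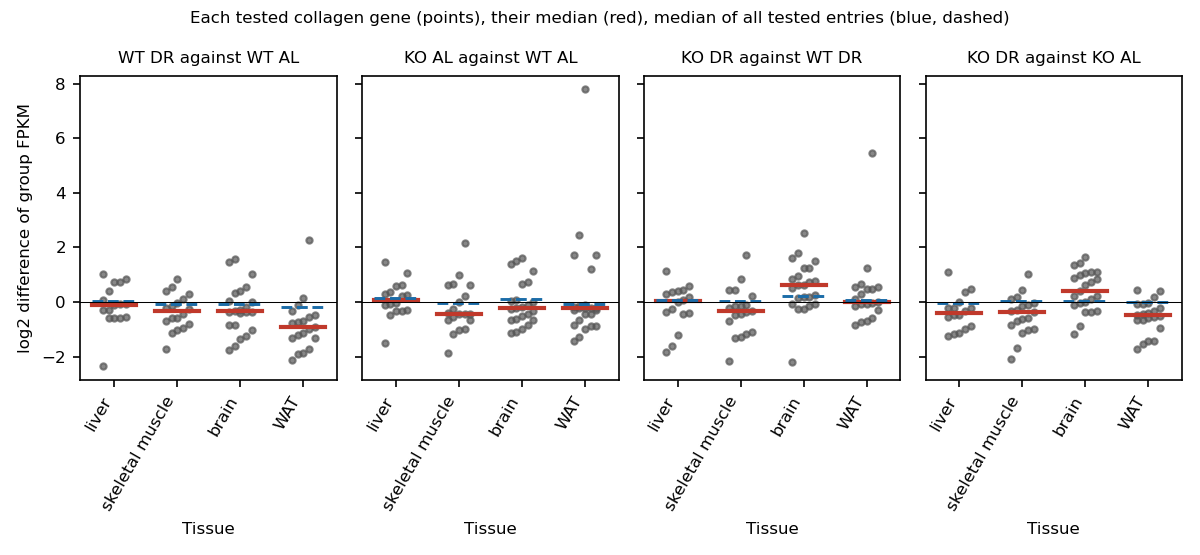
Log2 difference of each tested collagen gene (points) in the 4 comparisons, by tissue, with the median of the collagen genes (red) and of all tested entries (blue, dashed). In WAT the red line lies below the blue one for both diet comparisons, and in brain it lies above it for KODR against WTDR and KODR against KOAL.

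Whether diet acted differently in the 2 genotypes was tested by the interaction, the KODR minus KOAL difference less the WTDR minus WTAL difference. In brain 17 of 24 tested collagen genes had a positive value, with a median of 0.66 against 0.10 over all entries, and in WAT 15 of 23, with a median of 0.47 against 0.13. A gene was tested if any of the groups reached 1 FPKM. In brain, Col8a1, Col11a1 and Col27a1 reached it only in WTAL and KODR, the groups that enter with a plus sign. The minimum therefore fixed their positive direction, and the brain count and median include them. In liver the median was 0.07 against −0.09 and in muscle 0.07 against 0.08. In all 4 tissues 0 genes passed (0.086% of all entries in liver, 0.371% in muscle, 0.396% in brain and 0.121% in WAT). Col8a1 in brain (2.24, SE 0.96) was the 1 brain gene at an unadjusted p under 0.05 (3.53% of all entries) and the 1 that passed with the smaller SE (5.15%).

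Of 7 lists of genes that fold, cut, cross-link, bind, sense or break down collagen or share its matrix, 6 gave calls with the same test and FDR. Over the 16 comparisons, the 19 genes of folding and modification, such as prolyl and lysyl hydroxylases and the chaperone Serpinh1, gave 0 calls in 270 pairs, with 3 at an unadjusted p under 0.05 and 10 with the smaller SE. The 13 genes of propeptide cleavage and cross-linking gave 3 calls in 81 pairs, all lower. The 16 genes of breakdown and its inhibitors gave 1 higher and 2 lower in 150 pairs, and the 8 collagen receptors 1 higher in 65. The 23 fibril-binding proteoglycans and matrix proteins gave 4 higher and 9 lower in 271, the 15 other basement membrane genes 1 higher and 1 lower in 185, and the 16 genes of TGF-beta signalling to matrix 1 lower in 228. Over all entries 0.692% of pairs were called.

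In muscle, WTDR was lower than WTAL for Lox, the lysyl oxidase that cross-links collagen fibres (1.67 against 10.4 FPKM, log2 difference −2.64, SE 0.61). Sparc, a matrix protein that binds collagen and aids its deposition, stood at 43.6 against 171.9 FPKM (−1.98, SE 0.48) and Prelp, a leucine-rich proteoglycan that anchors collagen to basement membranes, at 11.9 against 69.0 (−2.54, SE 0.59). Nid1, the linker of laminin and type IV collagen, fell too (5.75 against 16.5 FPKM). Thbs2, a thrombospondin that binds matrix, stood at 1.39 against 7.88 FPKM (−2.50, SE 0.31). It was also called lower in KOAL than in WTAL muscle (−1.85, SE 0.31). Fmod, the fibril-spacing proteoglycan fibromodulin, rose from 4.24 FPKM in WTAL to 19.1 in WTDR (2.17, SE 0.63). Of the 22 fibril-binding genes tested there, 4 had positive and 18 negative differences, with a median of −0.67 against −0.06. The adipocyte, Schwann cell and hepatocyte marker sums given above also differed between these muscle groups. Lep of the adipocyte list stood at 4.03 FPKM in WTDR and 78.7 in WTAL muscle. In WTAL WAT, Lox, Sparc, Prelp and Thbs2 read 54.8, 1495, 677 and 41.6 FPKM, above their muscle levels. Nid1 and Fmod were not compared in this way. The part of fat or other cells in these muscle differences was not tested.

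In WAT, the proteoglycan lumican (Lum), which regulates fibril diameter, rose from 20.9 FPKM in WTAL to 47.7 in WTDR (log2 difference 1.19, SE 0.21). It was also called in KOAL against WTAL (32.7 FPKM, 0.64, SE 0.19) and was lower in KODR (28.2 FPKM) than in WTDR (−0.76, SE 0.18). Thbs2, a thrombospondin that binds matrix and limits vessel growth, fell from 41.6 FPKM in WTAL to 4.29 in WTDR (−3.28, SE 0.61). In WTDR and in KOAL against WTAL, Lum therefore went against the direction of most collagen chains, and in WTDR Thbs2 went with it. The Lum intervals were narrow, such as 16.4 to 25.4 around 20.9 FPKM in WTAL WAT. Dcn there had 186 to 623 around 405 FPKM. Lum could thus be called at a difference smaller than those at which collagen genes were not called. Of the 22 fibril-binding genes tested in WTDR against WTAL, 19 had negative differences, with a median of −1.19 against −0.17.

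The cross-linking and processing genes called in WAT were Loxl1, a lysyl oxidase of elastic fibres, and Pcolce2, an enhancer of procollagen cleavage. In KOAL against WTAL, Loxl1 stood at 15.9 against 46.6 FPKM (log2 difference −1.56, SE 0.39) and Pcolce2 at 6.20 against 23.6 (−1.93, SE 0.48). Tgfbi, a collagen-binding protein induced by TGF-beta, rose from 37.9 to 114 FPKM in the same comparison (1.59, SE 0.36) and was lower in KODR than in KOAL, at 24.4 FPKM (−2.22, SE 0.55). Among the other genes of these lists, the collagen receptor Ddr1 was higher in KODR than in WTDR brain (54.3 against 19.3 FPKM, 1.49, SE 0.46). Ctsk, which encodes the collagen-cleaving protease cathepsin K, was lower in KODR than in KOAL muscle (2.26 against 9.66 FPKM, −2.09, SE 0.60).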

How the data were processed

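RNA-seq libraries of 4 tissues and 4 groups per tissue were compared. The authors trimmed the reads with cutadapt 1.5 and sickle, aligned them to GRCm38 and deposited FPKM values per group from Cuffdiff 2.2.1, with multi-read correction, compatible-hits and geometric normalisation and a minimum of 8 aligned reads. Each group has 1 pooled FPKM and a 95% interval that spans 2 standard deviations (SD) on either side. No counts were used, so the depth per library is unknown.

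From these, log2 ratios, delta-method SEs and two-sided Wald p-values were computed where the authors marked both estimates as OK, neither FPKM was 0 and the higher one was at least 1. P-values were adjusted by Benjamini and Hochberg within tissue and comparison (FDR 10%) and the method was tested on simulated data. No pseudocount was added. The labelled libraries are not stated to be paired. Whether the interval's SD includes the spread between mice was not tested, and the smaller SE takes it as that of single libraries. Python 3.11.15 was used with matplotlib 3.10.9 for plots, statsmodels 0.14.6 and scipy 1.17.1 for tests, and pandas 2.3.3 and numpy 2.4.6 for tables. Exon lengths came from GENCODE M21, and start-site windows from RefSeq. Protein sequences were not used here, so coding exon lengths and start-site windows took the place of the planned protein features.

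The collagen genes and the marker and pathway lists were chosen with earlier results of these data known. Genes were named if they were collagens that passed the FDR, one of 12 widely studied chains (Col1a1, Col1a2, Col3a1, Col4a1, Col4a2, Col5a1, Col5a2, Col6a1, Col6a2, Col6a3, Col15a1 and Col18a1), the highest of a class in a tissue, or among up to 4 called genes of a pathway list. The highest genes of a class were not all described in their tissue. Among those left out were Col14a1 (3.18 to 4.42 FPKM) and Col13a1 (0.91 to 1.37) in liver and Col28a1 (0.23 to 0.70) in WAT. Other collagens were named outside this rule after their values were seen. The grounds were their level, the size of a difference, an unadjusted p under 0.05 or a call with the smaller SE. Alternatives were the smaller SE, non-overlap of intervals, pseudocounts, other minimum levels, a stricter FDR, centring on the median of all entries and leaving out joined entries.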

Additional observations from a re-analysis of the deposited data

How the results depend on the processing

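In the 16 comparisons and 4 interactions 0 collagen genes passed the Wald test, and an FDR of 5%, centring, no minimum level, a minimum of 5 FPKM and leaving out joined entries each left all 20 results at 0. With the smaller SE, 18 calls appeared, 12 higher and 6 lower. They were 1 in WTDR against WTAL in WAT, 1 in brain and 3 in WAT in KOAL against WTAL, 1 in liver, 2 in muscle and 8 in brain in KODR against WTDR, 1 in muscle in KODR against KOAL, and 1 in brain in the interaction. Counting intervals that do not overlap as calls gave 1 in WTDR against WTAL in WAT, beside 174 of 14925 entries. A pseudocount of 0.1 or of 1 gave 1 call each in KOAL against WTAL in WAT. Beside these stood 518 and 469 calls among 15734 entries, against 199 of 15481 without a pseudocount. The ratio of summed collagen FPKM in WAT to muscle, 6.27 over the 4 groups, was 7.07 in WTAL alone and 1.59 as a median over the genes, where each gene counts alike. The cause of the other changes was not tested.

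No paired analysis was possible because each group has 1 pooled value, and leaving out each replicate in turn was not run for the same reason. With 2 or 3 libraries per group and a median SD of 36.5 to 62.9% of the FPKM, small differences in a single collagen gene were not detectable.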

Other observations

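The table holds 2 entries in which a collagen is joined to a neighbouring gene, so that their levels cannot be assigned to the collagen alone. The entry of Col20a1, a fibril-associated collagen, with 9230112E08Rik stood at 1.14, 1.96, 1.53 and 3.42 FPKM in liver of WTAL, WTDR, KOAL and KODR. In the same order the muscle groups read 2.43, 3.07, 3.53 and 2.42, the brain groups 2.24, 2.52, 3.19 and 4.18, and the WAT groups 2.33, 1.98, 2.25 and 2.14. The entry of Col7a1, the anchoring fibril collagen of skin, with Mir711 read 1.38, 1.5, 1.14 and 0.900 FPKM in muscle and 0.0336, 0, 1.25 and 0.0513 in WAT.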
